A study of Mus musculus with 9 samples.

Results

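A set of 9 genes that encode enzymes of serine synthesis and folate-dependent single-carbon metabolism was described across sorted populations of AML1-ETO9a leukaemic bone marrow: Phgdh, Psat1, Psph, Shmt1, Shmt2, Mthfd1, Mthfd2, Mthfd1l and Tyms. The members are fixed by symbol rather than by a cut on measured values, but the set was proposed with earlier results of these data known. All 9 had a row among the 24391 gene rows of the count table, and all 9 passed the filter on low counts that left 12573 genes for testing. Member counts ran from 85 for Psph in one CD43-ckit- library to 26108 for Mthfd1 in one CD43++ckit+ library.

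Cells make serine from a glycolytic intermediate in consecutive steps catalysed by Phgdh, Psat1 and Psph. Serine hydroxymethyltransferases, Shmt1 in the cytosol and Shmt2 in mitochondria, then move a carbon from serine to tetrahydrofolate and release glycine. Mthfd2 and Mthfd1l turn the folate-bound carbon into formate in mitochondria, Mthfd1 reattaches it to folate in the cytosol, and it is used for purines, methionine and, through Tyms, thymidylate. These enzymes are known for their activity in dividing cells, and antifolate drugs used against leukaemia act on this pathway.

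The cells came from C57BL/6 mice aged 6 to 8 weeks that carried leukaemia of the AML1-ETO9a model, a truncated form of the AML1-ETO fusion protein, so every group carried the same model, and no healthy control was analysed here. Bone marrow had been sorted on CD43, a leukocyte sialoglycoprotein encoded by Spn, and on c-Kit, the stem cell factor receptor encoded by Kit, into CD43++ckit+, CD43+ckit- and CD43-ckit- cells. Each population had 3 RNA-seq libraries. The labels say neither how the leukaemia was established nor whether different animals gave the libraries of one group. The p-values therefore reflect only the spread among these samples, which could be technical. In bulk RNA of sorted cells, fewer cells of a type and less RNA per cell cannot be told apart.

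Promoter windows were searched because several members moved together across the populations. RefSeq sequences (build GRCm38.p6, 250 bases before to 50 after the annotated start) were matched for all 9 genes in 10 windows, Psat1 having 2. Both strands were searched for 4 motifs that share no overlap in these windows, with N for any base. They were the C/EBP-ATF response element bound by Atf4 (TGATGNAA), the E-box (CACGTG), a loose E2F-like pattern (TTTNNCGC) and the CCAAT box (CCAAT). The windows of Psat1 and Mthfd1, the closest pair in expression among the members that fell from CD43++ckit+ to CD43+ckit- cells, are shown. They stand with those of Tyms, which changed in the next step, and of Mthfd2, which was called in no comparison in the fit used for the values given first throughout (TMM, all 9 libraries, no block). Each is printed 5′ to 3′ on the gene's strand, with motif matches in capitals (ATTGG is CCAAT on the other strand).
Psat1, chr19:15925010-15925309, minus strand: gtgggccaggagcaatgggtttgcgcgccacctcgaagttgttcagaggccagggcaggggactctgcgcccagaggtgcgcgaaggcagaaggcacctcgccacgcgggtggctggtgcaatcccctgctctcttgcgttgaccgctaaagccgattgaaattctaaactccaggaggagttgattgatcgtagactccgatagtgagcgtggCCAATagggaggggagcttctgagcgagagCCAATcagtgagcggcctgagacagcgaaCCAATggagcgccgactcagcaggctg
Mthfd1, chr12:76254982-76255281, plus strand: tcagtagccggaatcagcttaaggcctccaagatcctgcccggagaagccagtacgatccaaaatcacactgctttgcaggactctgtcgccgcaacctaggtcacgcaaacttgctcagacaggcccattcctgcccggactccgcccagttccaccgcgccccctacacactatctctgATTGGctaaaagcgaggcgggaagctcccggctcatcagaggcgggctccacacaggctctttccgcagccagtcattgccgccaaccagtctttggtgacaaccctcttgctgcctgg
Tyms, chr5:30073576-30073875, minus strand: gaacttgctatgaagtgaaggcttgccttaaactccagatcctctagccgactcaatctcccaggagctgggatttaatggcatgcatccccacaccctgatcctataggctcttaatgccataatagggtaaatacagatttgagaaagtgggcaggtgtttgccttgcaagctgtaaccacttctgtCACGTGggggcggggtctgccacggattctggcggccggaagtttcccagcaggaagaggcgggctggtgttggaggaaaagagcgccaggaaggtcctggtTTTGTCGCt
Mthfd2, chr6:83317555-83317854, minus strand: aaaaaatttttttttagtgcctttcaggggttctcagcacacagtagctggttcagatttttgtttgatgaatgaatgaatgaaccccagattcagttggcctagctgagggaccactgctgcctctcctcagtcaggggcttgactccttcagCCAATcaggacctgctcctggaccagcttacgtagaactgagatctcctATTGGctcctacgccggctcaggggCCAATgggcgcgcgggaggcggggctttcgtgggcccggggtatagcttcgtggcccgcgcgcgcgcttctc

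The CCAAT box occurred in 6 of 9 member genes, and 37.4% of all 32851 promoter windows of that length held it. Psat1 and Mthfd2 had 3 matches each, although Mthfd2 was the member least like Psat1 in expression. The loose E2F-like letters occurred in 3 members (Psph, Shmt2 and Tyms) against 5.17% of all windows. Each match (TTTACCGC, TTTCTCGC and TTTGTCGC) held an A or T at an N position. None would match a stricter pattern with only C or G there, so they are not read as E2F sites. The E-box occurred in 1 member, Tyms, 61 bases before the start, against 7.15% of windows. The Atf4 element occurred in 0 of 9 members and in 3.97% of windows, which says only that these letters are not in these windows. These matches are descriptions of sequence and no binding was measured.

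Libraries held 17966197 to 31781746 counts, fewest for CD43-ckit-. Values below are counts scaled to a common library size (CPM) with TMM, a normalization that assumes most genes do not change, and differences are log2 values of the first-named population minus the second, with an approximate SE. Calls were made at a Benjamini-Hochberg adjusted p under 0.05 in edgeR's quasi-likelihood test over all 12573 genes. Scaling matters here: with library totals in place of TMM, the median difference of all genes rose by 0.26 for CD43++ckit+ over CD43+ckit-, by 0.91 for CD43++ckit+ over CD43-ckit- and by 0.64 for CD43+ckit- over CD43-ckit-. Library 3 of CD43++ckit+ and library 1 of each other population correlated least with the rest of their own population, and counts of calls without these 3 libraries are given below. The sort genes followed their labels at the top: the Kit means of the 3 populations were 164.2 ± 15.9, 15.8 ± 7.01 and 34.1 ± 13.2 CPM (SD, n = 3), CD43++ckit+ first and CD43-ckit- last. Spn averaged 502.4 ± 63.7, 194.2 ± 50.3 and 142.3 ± 61.2 CPM in the same order, and for both genes the ckit- populations overlapped. Between CD43+ckit- and CD43-ckit-, Spn was not called (0.45 ± 0.33, adjusted p = 0.269). Kit was called lower in CD43+ckit- there (-1.11 ± 0.39, adjusted p = 0.0379), but not with library totals (-0.5, 0.33).

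Of the 9 enzymes, 7 differed among the populations in edgeR's joint test, a share near the 74.8% of all tested genes called there. The exceptions were the mitochondrial enzymes Shmt2 (adjusted p = 0.254) and Mthfd2 (adjusted p = 0.0804). From CD43++ckit+ to CD43+ckit- cells, the first step, Phgdh, Psat1, Shmt1 and Mthfd1 fell. From CD43+ckit- to CD43-ckit- cells, the second step, Psph, Mthfd1l and Tyms fell and Phgdh rose. In the fit with TMM, all 9 libraries and no block, none of the members was called as falling in both steps, and 5.76% of tested genes were. A step that was not called may still hold a change. Mthfd1 lay near the threshold in the second step (0.73 ± 0.28, adjusted p = 0.0536). With library totals it was called in both steps (1.77, adjusted p = 0.00413, and 1.34, 0.00747). Psph and Mthfd1l libraries did not overlap in either step, as was so for 55.5% of all tested genes in the first and 64.3% in the second. The steps share the CD43+ckit- libraries, so they are not independent of each other.

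**Figure D1:**
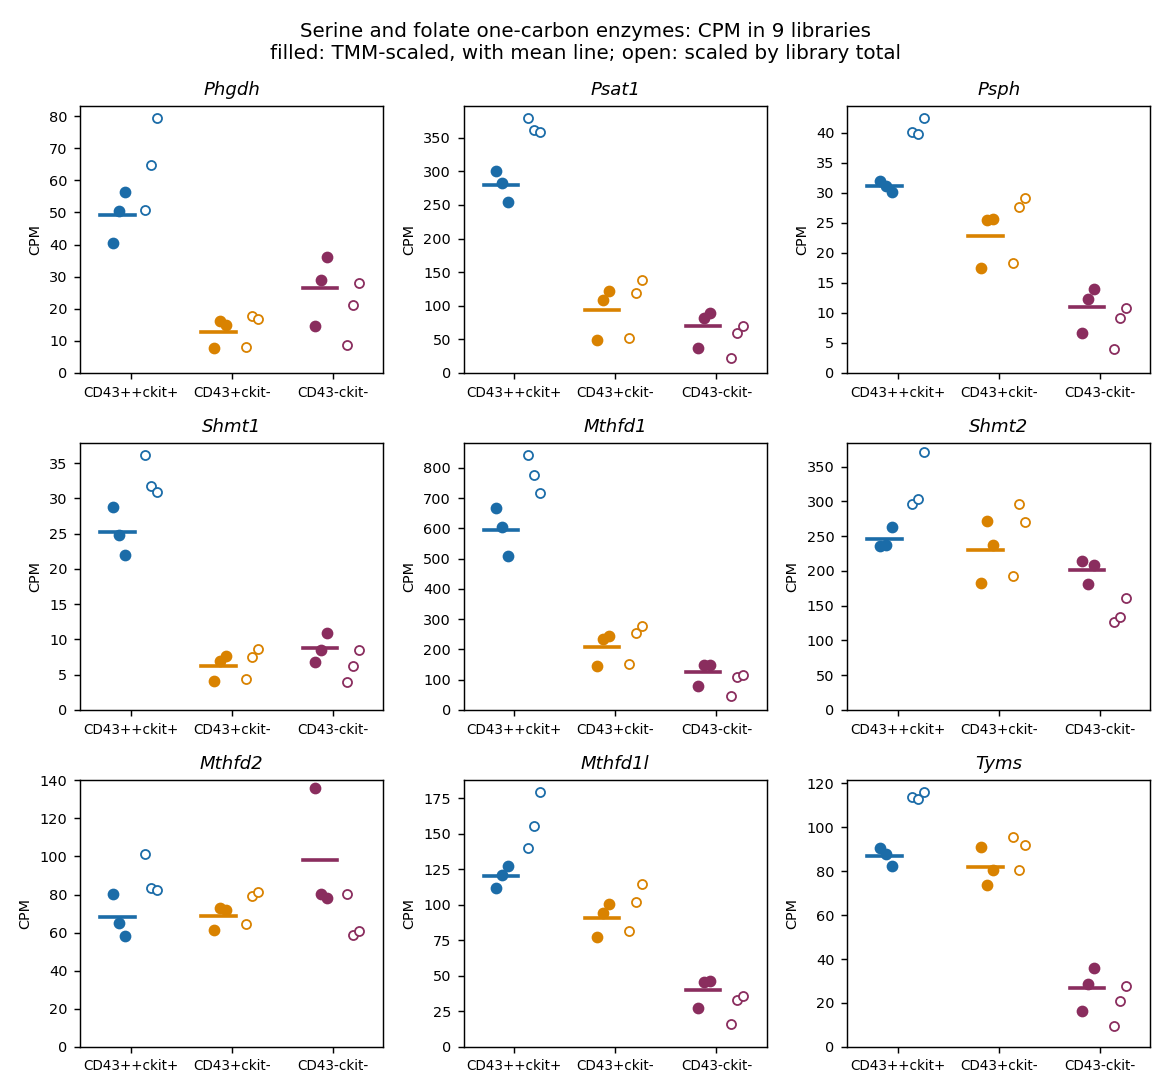
CPM of each enzyme (vertical axis, linear from 0) in the 9 libraries by sorted population, with filled points scaled by TMM, horizontal lines for their means and open points scaled by library total. Psat1, Shmt1 and Mthfd1 stand apart in CD43++ckit+ on either scale, Tyms and Mthfd1l are low in CD43-ckit-, and the order of the populations for Mthfd2 depends on the scale.

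Phgdh, the first and committed enzyme of serine synthesis, was highest in CD43++ckit+ cells and lowest in CD43+ckit- cells. CD43++ckit+ libraries held 40.4, 50.4 and 56.4 CPM, CD43+ckit- libraries 7.63, 16.2 and 14.8, and CD43-ckit- libraries 14.6, 28.9 and 36.2. The CD43++ckit+ libraries lay above all others, while a CD43-ckit- library lay among those of CD43+ckit-. CD43++ckit+ exceeded CD43+ckit- 3.81-fold (log2 1.93 ± 0.37, adjusted p = 0.0033, edgeR). Against CD43-ckit- the difference was 0.88 ± 0.36 and missed the threshold (adjusted p = 0.0517), with an interval of 2 SE either side from 0.17 to 1.6. That difference passed with library totals (1.75, adjusted p = 0.0053), and without CD43+ckit- library 1 (0.90, 0.0244), CD43-ckit- library 3 (1.18, 0.0303) or the 3 least correlated libraries (0.48, 0.00424). Of the members, only Phgdh passed as lower in the CD43+ckit- cells when set against CD43-ckit- (-1.05 ± 0.36, adjusted p = 0.0366). It did not pass with library totals (-0.44, 0.376 after adjustment), nor without CD43+ckit- library 1 (-0.76, 0.0976) or 3 (-1.14, 0.0681), or CD43-ckit- library 2 (-0.98, 0.0944) or 3 (-0.75, 0.133).

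Phgdh counts carry a further limit. In the GENCODE M21 annotation, 52.2% of the 50-base words of its transcript occurred in no other transcript, the rest being shared with the predicted genes Gm7901, Gm9347 and Gm8341, so reads could be split among copies. Marker genes of neutrophils also differed between libraries: the CD43++ckit+ libraries summed to 379.5, 102.5 and 6489 CPM, the CD43+ckit- libraries to 526.9, 4013 and 3198, and the CD43-ckit- libraries to 4107, 17750 and 18310. In both ckit- populations the library with the lowest neutrophil sum, library 1, also had the lowest Phgdh, and the lowest Psat1, Psph, Shmt1, Mthfd1 and Mthfd1l. CD43++ckit+ cells differed from this: library 3, with the highest sum, had the lowest Psat1, Psph, Shmt1 and Mthfd1 of that population. It had the highest Phgdh and Mthfd1l. The part of such cells in these values was not tested.

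Psat1, the aminotransferase of the next step, was high in CD43++ckit+ cells and low in both ckit- populations. CD43++ckit+ libraries held 301.0, 282.0 and 253.9 CPM, CD43+ckit- libraries 49.5, 108.8 and 121.3, and CD43-ckit- libraries 37.6, 81.6 and 89.9. Every CD43++ckit+ library was above every other library, and the ckit- populations overlapped. CD43++ckit+ exceeded CD43+ckit- 2.99-fold for Psat1 (log2 1.58 ± 0.38, adjusted p = 0.00981). The difference from CD43-ckit- was 2.0 ± 0.39 (adjusted p = 0.00154). Between the ckit- populations the difference was 0.42 ± 0.37 (adjusted p = 0.355), with an interval from -0.33 to 1.16. It passed without the 3 least correlated libraries (0.43, adjusted p = 0.00239).

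Psph, the phosphatase that releases free serine, was lowest in CD43-ckit- cells. The CD43++ckit+ libraries held 31.95, 31.1 and 30.2 CPM, CD43+ckit- libraries 17.4, 25.4 and 25.6, and CD43-ckit- libraries 6.68, 12.4 and 13.9, so the 3 populations did not overlap. The first step was 0.45 ± 0.26 and was not called (adjusted p = 0.203). CD43+ckit- exceeded CD43-ckit- by 1.05 ± 0.26 (adjusted p = 0.0097), a call lost without CD43+ckit- library 2 (0.90, adjusted p = 0.0529). CD43++ckit+ exceeded CD43-ckit- by 1.5 ± 0.27 (adjusted p = 0.00095). In the annotation, 10.4% of Psph exon bases lie opposite exons of Cct6a, a chaperonin subunit gene, and the strand setting of the counting is not given in the sources used here. Cct6a, looked up after the Psph values were seen, showed 1.17 ± 0.16 more in CD43++ckit+ relative to CD43+ckit- (adjusted p = 0.000825) and, relative to CD43-ckit-, 1.61 ± 0.16 (adjusted p = 5.05e-05), and its part in the Psph counts was not tested.

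Of the hydroxymethyltransferase genes, the cytosolic one was called and the mitochondrial one was not, and their ratio is tested further on. For cytosolic Shmt1 the CD43++ckit+ libraries held 28.8, 24.8 and 22.0 CPM, CD43+ckit- libraries 4.10, 6.94 and 7.60, and CD43-ckit- libraries 6.84, 8.51 and 10.9. The CD43++ckit+ libraries lay clearly above the others, which overlapped. Shmt1 in CD43++ckit+ was 4.05-fold that of CD43+ckit- (log2 2.02 ± 0.27, adjusted p = 0.000739), the largest difference of any member in that comparison, where 97.1% of tested genes had a lower one. CD43-ckit- was exceeded by 1.52 ± 0.27 (adjusted p = 0.000894). The ckit- populations differed by -0.49 ± 0.27 (adjusted p = 0.14), and by 0.13 with library totals (adjusted p = 0.716). In a fit of these 2 populations with the replicate number as a block, CD43+ckit- passed as lower (-0.57, adjusted p = 0.0272). Some Shmt1 exon bases, 4.74%, lie opposite those of Smcr8.

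For mitochondrial Shmt2 the CD43++ckit+ libraries held 235.7, 237.1 and 263.6 CPM, CD43+ckit- libraries 183.0, 272.0 and 237.3, and CD43-ckit- libraries 214.7, 181.8 and 208.4. The CD43+ckit- libraries spread across the range of the others, and every CD43++ckit+ library lay above every CD43-ckit- library. The differences were 0.09 ± 0.16 (CD43++ckit+ minus CD43+ckit-, adjusted p = 0.694), 0.28 ± 0.16 (CD43++ckit+ minus CD43-ckit-, 0.13) and 0.19 ± 0.16 (CD43+ckit- minus CD43-ckit-, 0.304). Their intervals of 2 SE ran from -0.22 to 0.40, from -0.03 to 0.60 and from -0.12 to 0.51, so a log2 difference of 1 lay outside all 3 on the TMM scale. With library totals, Shmt2 in CD43-ckit- cells was exceeded by that of CD43++ckit+ by 1.21 (adjusted p = 0.000234) and by that of CD43+ckit- by 0.85 (adjusted p = 0.00273).

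Mthfd1, the cytosolic trifunctional folate enzyme, had the highest level per kilobase of the set in CD43++ckit+ cells and the largest fall to CD43-ckit-. Its CD43++ckit+ libraries held 668.4, 604.8 and 509.7 CPM, CD43+ckit- libraries 144.4, 234.8 and 244.7, and CD43-ckit- libraries 77.9, 147.9 and 149.9. The CD43++ckit+ libraries were far above the rest, and 1 CD43+ckit- library fell among those of CD43-ckit-. CD43++ckit+ exceeded CD43+ckit- by 1.51 ± 0.29 (adjusted p = 0.0032) and CD43-ckit- by 2.25 ± 0.29 (adjusted p = 0.000178), where 97.6% of tested genes had a lower difference. The ckit- populations differed by 0.73 ± 0.28 (adjusted p = 0.0536). This passed with library totals (1.34, adjusted p = 0.00747), in a fit of these 2 populations with the replicate number as a block (0.70, 0.000292), and without CD43++ckit+ library 3 (0.74, 0.0444) or CD43+ckit- library 1 (0.95, 0.0207).

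Mthfd2, the mitochondrial dehydrogenase and cyclohydrolase, was not highest in CD43++ckit+ cells on the TMM scale. Scaled by library totals its mean was highest there, at 89.1 CPM against 75.2 for CD43+ckit- and 66.7 for CD43-ckit-. With TMM, CD43++ckit+ libraries held 80.5, 65.2 and 58.5 CPM, CD43+ckit- libraries 61.2, 72.9 and 71.7, and CD43-ckit- libraries 136.2, 80.2 and 78.4. Library 1 of CD43-ckit- was high, and the other values lay between 58.5 and 80.5. The difference of CD43++ckit+ from CD43+ckit- was -0.01 ± 0.22 (adjusted p = 0.977), with an interval from -0.46 to 0.44. It was -0.53 ± 0.23 from CD43-ckit- (adjusted p = 0.0613), and CD43+ckit- differed from CD43-ckit- by -0.52 ± 0.23 (adjusted p = 0.0787). The signs depended on the scaling: with library totals these 3 differences were 0.25 (adjusted p = 0.258), 0.42 (0.0405) and 0.17 (0.356). Under TMM, the deficit of CD43++ckit+ relative to CD43-ckit- passed without CD43-ckit- library 2 (-0.65, adjusted p = 0.0469) or 3 (-0.67, 0.0387). Without the high library 1 it was -0.21 and the difference between the ckit- populations -0.20, neither of them called. With a strict filter on low counts (CPM of 1 in 6 libraries) CD43++ckit+ (-0.66, adjusted p = 0.0233) and CD43+ckit- (-0.63, 0.0377) both passed as lower than CD43-ckit-. In a fit of the ckit- populations alone with the replicate number as a block, CD43+ckit- also passed as lower (-0.53, adjusted p = 0.0036). CD43-ckit- library 1 also had the highest summed level of erythroid markers, 60100 CPM against 41160 and 37910 in libraries 2 and 3, and the lowest TMM factor, 0.589, and the part of either was not tested.

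Mthfd1l, the mitochondrial synthetase that releases formate, and Tyms, thymidylate synthase, were both low in CD43-ckit- cells. For Mthfd1l the CD43++ckit+ libraries held 111.4, 121.1 and 127.3 CPM, CD43+ckit- libraries 77.3, 93.8 and 100.7, and CD43-ckit- libraries 27.6, 45.3 and 46.2, with no overlap between any populations. Its first step was 0.40 ± 0.20 (adjusted p = 0.135) and passed without CD43-ckit- library 1 (0.40, adjusted p = 0.0222), which enters that comparison only through the shared spread. That step also passed in fits of CD43++ckit+ and CD43+ckit- alone, without a block (0.42, adjusted p = 0.0412) and with the replicate block (0.43, 0.0454). The second step of Mthfd1l was 1.19 ± 0.20 (adjusted p = 0.00145). CD43++ckit+ exceeded CD43-ckit- by 1.6 ± 0.20 (adjusted p = 0.000157).

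For Tyms the CD43++ckit+ libraries held 90.4, 88.0 and 82.4 CPM, CD43+ckit- libraries 90.8, 73.8 and 80.6, and CD43-ckit- libraries 16.4, 28.7 and 35.9. The CD43+ckit- and CD43++ckit+ libraries were intermixed, and all CD43-ckit- libraries lay well below them. The first step was 0.09 ± 0.24 (adjusted p = 0.804), with an interval from -0.38 to 0.56. CD43+ckit- exceeded CD43-ckit- by 1.6 ± 0.24 (adjusted p = 0.00092), where 97.8% of tested genes had a lower difference. CD43++ckit+ exceeded CD43-ckit- by 1.68 ± 0.25 (adjusted p = 0.000318).

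When CD43++ckit+ was compared with CD43+ckit-, 4 of 9 members were higher and 0 lower, beside 39.8% of tested genes called, 19.7% higher and 20.1% lower. The median member difference was 0.45, against 0.01 for all tested genes. Compared with CD43-ckit-, 6 of 9 were higher and 0 lower, beside 67.4% of genes called, 39.7% higher and 27.7% lower, with medians of 1.52 and 0.19. Between CD43+ckit- and CD43-ckit-, 3 were higher and 1 lower, beside 51.9% of genes called, 31.0% higher and 20.9% lower, with medians of 0.42 and 0.13. Counting both directions, the share of members called lay near the share of all genes in each of the 3 comparisons. Libraries did not overlap for 6, 8 and 4 members in these comparisons, beside 55.5%, 73.2% and 64.3% of all tested genes.

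Without the 3 least correlated libraries, an alternative chosen after seeing the data, 6, 8 and 8 members were called in the 3 comparisons, beside 67.6%, 81.9% and 70.2% of genes. With library totals, 4, 9 and 5 were called, all higher in the first-named population, beside 41.7%, 74.7% and 64.1% of genes called and 27.9%, 61.4% and 54.6% called higher. In a fit of the CD43+ckit- and CD43-ckit- libraries alone, 4 members were called without a block and 7 with the replicate number as a block, 4 higher and 3 lower, the latter beside 67.2% of genes, 34.5% higher and 32.8% lower. With the block on all 9 libraries 5 were called. In the blocked fit of the 2 populations Shmt1 (-0.57, adjusted p = 0.0272) and Mthfd2 (-0.53, adjusted p = 0.0036) were lower in CD43+ckit-.

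**Figure D2:**
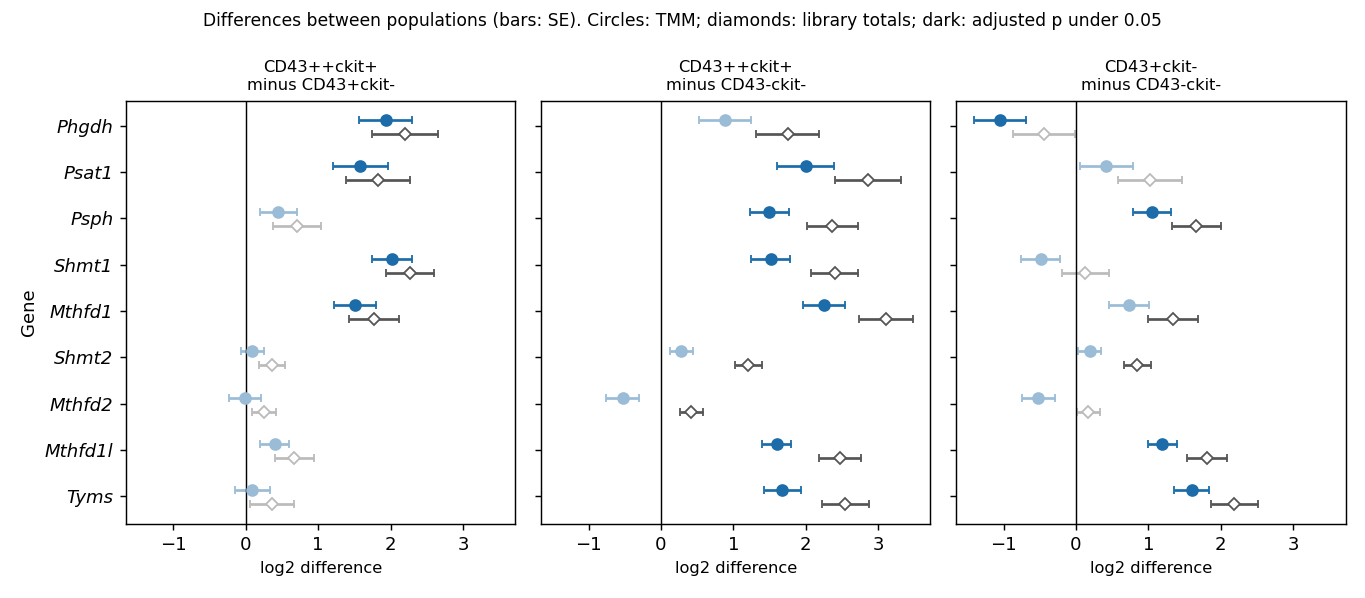
Log2 differences of the 9 enzymes (horizontal axis) in the 3 pairwise comparisons, with bars of 1 SE, circles for TMM scaling, diamonds for library totals and dark symbols for adjusted p under 0.05. Phgdh, Psat1, Shmt1 and Mthfd1 are dark in the left panel, the right panel has Psph, Mthfd1l and Tyms above 0 and Phgdh below it, and library totals shift all points to the right.

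Ratios of counts within a library do not depend on library scaling, so the balance of mitochondrial to cytosolic enzymes was compared that way. Only changes between populations can be read from them, because gene lengths differ. The log2 ratio of Shmt2 to Shmt1 was 3.03, 3.26 and 3.58 for CD43++ckit+ libraries, 5.47, 5.29 and 4.96 for CD43+ckit-, and 4.97, 4.41 and 4.25 for CD43-ckit-. It was lowest in every CD43++ckit+ library, and the ckit- populations overlapped by 1 library (exact permutation test of the F statistic, p = 0.00714, adjusted over 4 ratios 0.00952). The log2 ratio of Mthfd2 to Mthfd1 averaged -3.13 ± 0.08 (SD, n = 3) for CD43++ckit+, -1.57 ± 0.29 for CD43+ckit- and -0.34 ± 0.99 for CD43-ckit-, with no overlap (exact permutation p = 0.00357, the smallest 1680 arrangements can give, adjusted 0.00714). The wide spread in CD43-ckit- came from library 1, at 0.81 beside -0.88 and -0.93.

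The log2 ratio of Mthfd1l to Mthfd1 averaged -2.3 ± 0.29, -1.17 ± 0.23 and -1.63 ± 0.12 in CD43++ckit+, CD43+ckit- and CD43-ckit-, again with no overlap (exact permutation p = 0.00357, adjusted 0.00714). Mthfd2 was also set against Mthfd2l, its close relative in mitochondria. That log2 ratio was 4.27, 3.92 and 3.61 for CD43++ckit+ libraries, 3.76, 4.42 and 4.17 for CD43+ckit-, and 6.90, 5.77 and 5.26 for CD43-ckit- (exact permutation p = 0.0214, adjusted 0.0214). The CD43-ckit- libraries were highest, where Mthfd2l held only 14, 22 and 28 counts.

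**Figure D3:**
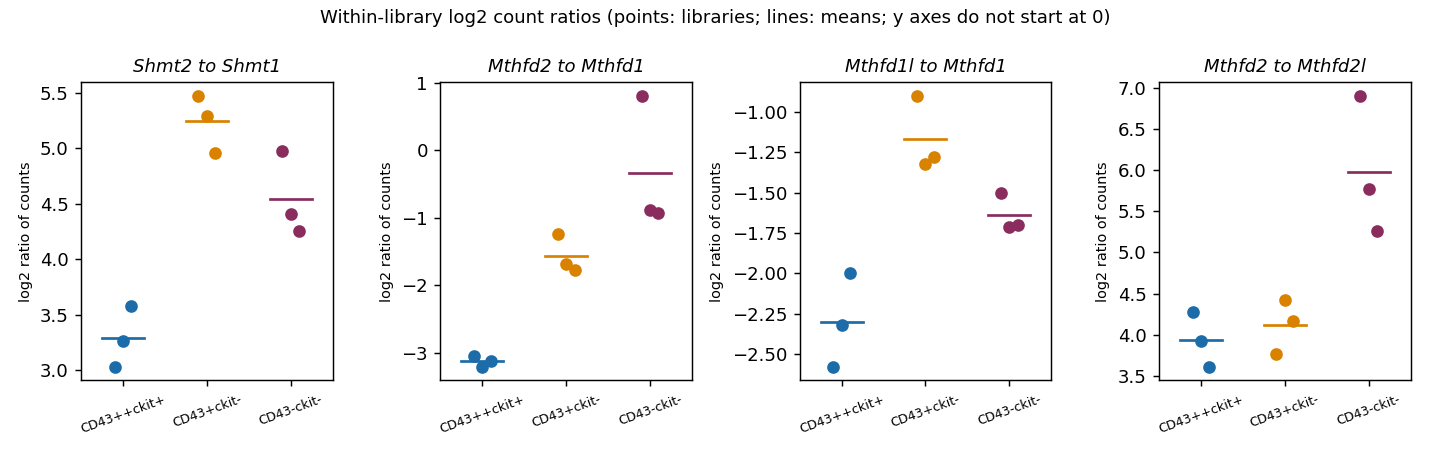
Log2 ratios of counts within each library (vertical axes, which do not start at 0) for 4 enzyme pairs by sorted population, with points for libraries and lines for means. Each of the first 3 ratios is lowest in CD43++ckit+, and the ratio of Mthfd2 to Mthfd2l is highest in CD43-ckit-.

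Levels of different enzymes were compared per kilobase of the principal GENCODE M21 transcript, on the TMM scale. In CD43++ckit+ cells Mthfd1 led with 183 ± 24.6 CPM per kilobase (SD, n = 3), above Psat1 at 107 ± 9.06 and Shmt2 at 107 ± 6.87, which did not differ beyond their spread. Mthfd2 (32.6 ± 5.42) and Mthfd1l (32.5 ± 2.17) were close together. Tyms (27.5 ± 1.29) and Phgdh (25.9 ± 4.29) were close to each other, and Tyms lay below Mthfd1l beyond the spread of both. The limit on Phgdh reads given above holds for its level here. Psph (17.9 ± 0.515) and Shmt1 (8.81 ± 1.19) were lowest. In CD43-ckit- cells the order changed, with Shmt2 first at 88.1 ± 7.62, then Mthfd2 at 47.1 ± 15.8, Mthfd1 at 38.6 ± 12.6 and Psat1 at 26.6 ± 10.7, the last 3 overlapping in spread with their neighbours. Shmt1 was lowest in all 3 populations, at 2.17 ± 0.650 in CD43+ckit- and 3.06 ± 0.717 in CD43-ckit-. With the union of all exons as length, Shmt2 (79.0) stood above Psat1 (65.6) in CD43++ckit+. Mthfd1l (27.0) then stood above Mthfd2 (19.5), and Phgdh (19.7) above Tyms (14.3), so the closeness of these pairs depended on the length used.

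Likeness between expression patterns was measured as the root mean square difference of log2 CPM, centred on each gene's mean, over the 9 libraries, as a description. The closest members were Psph and Mthfd1l (0.127), then Psat1 and Mthfd1 (0.210). Tyms was nearest to Mthfd1l (0.271), and Phgdh to Shmt1 (0.381). Mthfd1 and Mthfd2, which catalyse overlapping reactions in different compartments, were the least alike pair of the set (1.24). Outside the set, the tested genes nearest to Tyms were Zfp61 (0.0772), Helq (0.0920) and Rfc4 (0.0956), a subunit of the clamp loader of DNA replication. Those nearest to Phgdh were Tagln2 (0.174), H2afy (0.186) and Psmb8 (0.187), and those nearest to Mthfd2 were Taok3 (0.120), Ttc33 (0.128) and Gltscr1l (0.134).

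The 28 replication genes examined beside Tyms, such as helicase and polymerase subunits, were called mainly in the same step. Of them 0 were higher and 2 lower when CD43++ckit+ was compared with CD43+ckit-, while all 28 were lower in CD43-ckit- relative to CD43+ckit- (median difference of CD43+ckit- from CD43-ckit- 1.39, beside 31.0% of all genes and a median of 0.13). Without the 3 least correlated libraries the first of these counts became 7 higher and 2 lower, and the second stayed at 28. Their summed level per library was 4433 to 4542 CPM for CD43++ckit+, 3987 to 4884 for CD43+ckit- and 1103 to 2023 for CD43-ckit-. Among 12 thymidylate and deoxynucleotide genes, 8 were higher and 2 lower in CD43++ckit+ relative to CD43-ckit- (median 1.01), and 9 and 2 without those libraries. Over all genes the shares were 39.7% higher and 27.7% lower, and 46.4% and 35.4% without those libraries. The ribonucleotide reductase subunits differed: between the same populations Rrm1 was higher by 1.05 ± 0.13 (adjusted p = 0.000144), and Rrm2 was lower by 0.72 ± 0.17 (log2 -0.72, adjusted p = 0.00394), a sign that turned with library totals (0.20, adjusted p = 0.306).

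Several genes that move folates or use their carbon for purines were higher in CD43++ckit+ cells, while Slc46a1, a folate transporter named after its values were seen, was called lower there in both comparisons. Of 15 other folate genes tested, 6 were higher and 1 lower in CD43++ckit+ relative to CD43+ckit- (median 1.26), and 10 were higher and 1 lower relative to CD43-ckit- (median 1.54). Without the 3 least correlated libraries, of 13 tested, 8 were higher and 2 lower in the first comparison and 10 and 2 in the second. For these and the lists that follow, all tested genes had medians of 0.01 and 0.19 in these comparisons. Of all tested genes, 19.7% were called higher and 20.1% lower in the first comparison, and 39.7% and 27.7% in the second. Without the 3 least correlated libraries these shares were 34.6% and 33.0%, and 46.4% and 35.4%. Relative to CD43-ckit-, the folate carrier Slc19a1 was higher by 2.29 ± 0.32 (adjusted p = 0.000257), the mitochondrial folate carrier Slc25a32 by 1.8 ± 0.30 (0.000671) and Fpgs, which adds glutamates to folates, by 1.90 ± 0.25 (0.000172). The purine synthesis enzymes Gart and Atic were higher there by 1.87 ± 0.28 (adjusted p = 0.000393) and 2.02 ± 0.33 (0.000603). Between the ckit- populations 4 folate genes were higher and 1 lower in CD43+ckit-, beside 31.0% and 20.9% of all genes. The higher count lay near that background. Library totals gave 12 and 1, beside 54.6% and 9.47% of all genes. Of 13 tested, 9 and 1 were called in the fit of these 2 populations with the replicate block, beside 34.5% and 32.8%.

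Other serine, glycine and methionine genes gave mixed counts. Of 10 further serine and glycine genes, 3 were higher and 0 lower in CD43++ckit+ relative to CD43+ckit-. Relative to CD43-ckit-, 7 were higher and 2 lower (median 0.66), against 4 and 2 with DESeq2 size factors. Gcsh, the carrier protein of the glycine cleavage system, was higher in CD43++ckit+ by 2.17 ± 0.40 relative to CD43-ckit- (adjusted p = 0.00121). Of 11 methionine cycle genes, 9 were higher and 1 lower in CD43++ckit+ relative to CD43-ckit- (median 1.49), among them Mtr, methionine synthase (1.20 ± 0.14, adjusted p = 8.5e-05), Mat2a, which makes S-adenosylmethionine (1.43 ± 0.16, 8.34e-05), and Ahcy, which clears its product (1.49 ± 0.22, 0.000325). Against CD43+ckit-, 6 of the 11 were higher and 1 lower. Without the 3 least correlated libraries the serine and glycine genes gave 4 higher and 0 lower relative to CD43+ckit- and 8 and 2 relative to CD43-ckit-, and the methionine cycle genes 8 and 1, and 10 and 1.

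Several transporters of serine and glycine, and several genes of the amino acid stress response, were lower in CD43++ckit+ cells. Of 11 transporters, 1 was higher and 7 lower in CD43++ckit+ relative to CD43+ckit-, and 2 higher and 8 lower relative to CD43-ckit- (median -2.02). With library totals these counts were 2 and 6, and 3 and 6 (median -1.05). Without the 3 least correlated libraries they were 2 and 9, and 2 and 8. Over all genes, library totals gave 27.9% higher and 13.8% lower in the first comparison, and 61.4% and 13.3% in the second. Sfxn1, a mitochondrial serine carrier, was higher in CD43++ckit+ by 1.23 ± 0.22 relative to CD43+ckit- (adjusted p = 0.00252), whereas Slc25a38, a mitochondrial glycine carrier used for haem synthesis in red cell precursors, was at -2.27 ± 0.22 (adjusted p = 0.000326). Slc1a5 and Slc38a2, neutral amino acid transporters of the cell surface, were lower in CD43++ckit+ relative to CD43-ckit-, at -2.04 ± 0.23 (adjusted p = 7.82e-05) and -1.46 ± 0.18 (0.000141). Atf4, a transcription factor known to induce serine synthesis genes, was lower in CD43++ckit+ relative to CD43-ckit- (-2.79 ± 0.19, adjusted p = 4.76e-06), as were its known targets Ddit3 (-3.0 ± 0.27, 2.78e-05) and Trib3 (-2.51 ± 0.29, 9.5e-05). Asns, asparagine synthetase and another known target, was higher there (1.02 ± 0.12, 9.8e-05). Of 21 genes of that response, 4 were higher and 11 lower in that comparison (median -1.44), against 7 and 9 with library totals (median -0.51) and 5 and 13 without the 3 least correlated libraries. Relative to CD43+ckit-, 3 were higher, 7 lower and 11 not called (median -0.22), against 4 and 10 without those libraries.

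**Figure D4:**
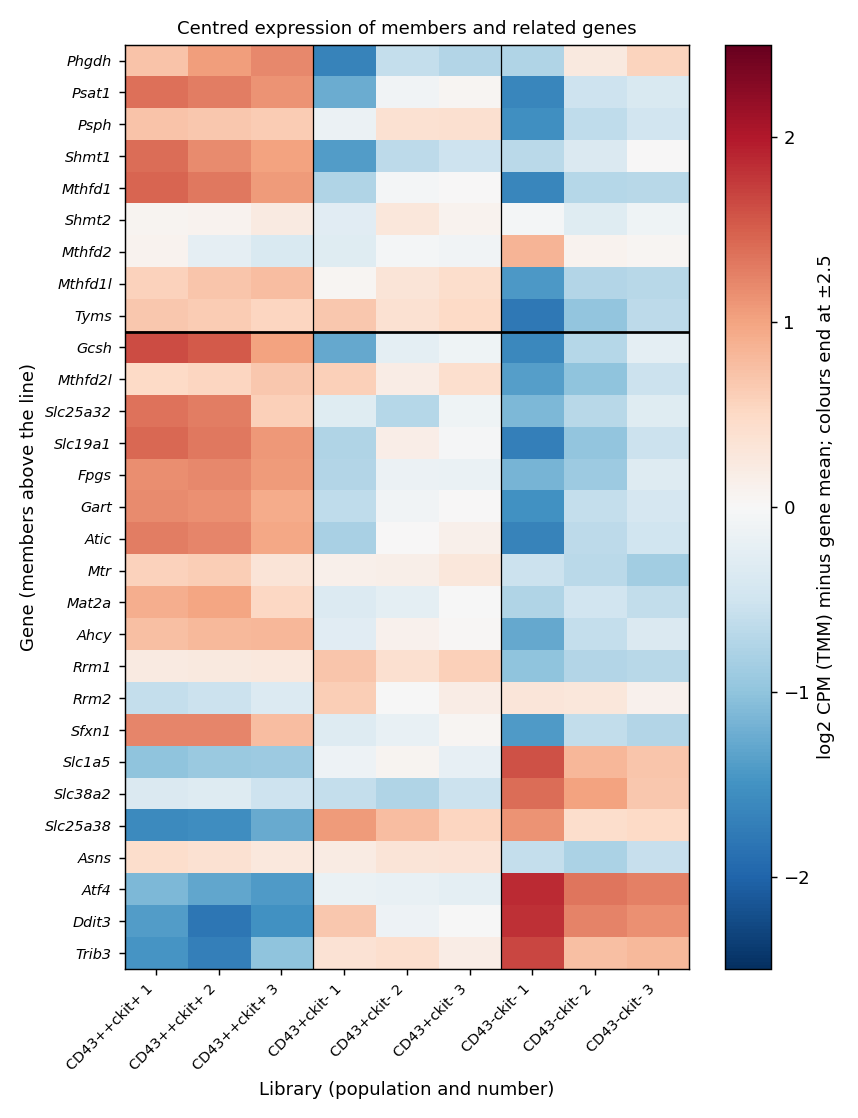
Log2 CPM (TMM) minus each gene's mean over the 9 libraries, for the 9 enzymes above the horizontal line and related genes below it, with libraries in columns by population and colours ending at 2.5 in either direction. Slc19a1, Gart and Atic are red in CD43++ckit+ with Psat1 and Mthfd1, while Atf4, Ddit3 and Trib3 are blue there and red in CD43-ckit-.

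Markers of several other cell types differed between the sorted populations, not all in the same order. Of 12 erythroid markers tested, 12 were lower in CD43++ckit+ relative to CD43+ckit- and 11 relative to CD43-ckit-. Over 18 genes they summed to 2680 to 3523 CPM per library for CD43++ckit+, 17800 to 20860 for CD43+ckit- and 37910 to 60100 for CD43-ckit-. The globin genes Hbb-bs, Hbb-bt, Hbb-b1 and Hbb-b2 were at 0 in all libraries, and Hba-a1 and Hba-a2 were at 0 in CD43++ckit+. These zeros describe the deposited counts, whose annotation and counting rules are not given. They do not show that the cells lacked globin RNA, and why they arose was not tested. B-lineage markers summed to 5.14 to 32.5, 18.6 to 57.9 and 112.7 to 293.7 CPM in the 3 populations in the same order, and mast cell and basophil markers to 1174 to 2278, 801.2 to 906.5 and 1282 to 1625. Monocyte and macrophage, T and NK cell, megakaryocyte, and stromal and endothelial markers each summed to at most 412.5 CPM in any library. The part of these cell types in the enzyme and transporter values was not tested.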

How the data were processed

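Total RNA of sorted bone marrow cells was extracted with Trizol and made into TruSeq libraries, per the labels' protocols. The authors deposited one table of read counts, whole numbers for mouse gene symbols in 9 libraries, with no normalization. The submitters' processing notes name, with no roles, HTSeq, RSEM, TopHat2 2.0.4, CASAVA 1.8 and edgeR. They name a human build, so for the counts the build, annotation and strand setting were not given in the sources used here. Of the rows, 27 carried dates as names and 0 named no gene.

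The counts entered edgeR 4.0.16 under R 4.3.3 (filterByExpr with minimum count 10 and total 15, TMM, robust quasi-likelihood fit of 3 group means on 9 libraries). Differences with adjusted p under 0.05 were called. The SE is the size of the log2 difference divided by the square root of F. The procedure was run on simulated counts in which few genes changed, as many up as down, in CD43++ckit+ alone. Those counts meet the TMM assumption, so the run cannot show how scaling acts where many genes differ. Ratios used counts plus 0.5. All 9 members, genes fixed by role, the 3 nearest genes of 3 members, Kit and Spn are named, and Cct6a was added later. The members and lists were chosen with earlier results of these data known, and some pathway genes, left out of the lists after their values were seen, are not reported here. Alternatives were library totals, DESeq2 1.42.0, other filters, the replicate block, fits of 2 populations and leaving out libraries.

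Replicate numbers are shared in the labels. For CD43+ckit- with CD43-ckit-, deviations from group means at the same number had correlations of 0.525, 0.366 and 0.303, each above 0.1, so these libraries were taken as paired, from the data alone. The highest correlation with another number was 0.343 for number 2 and 0.349 for number 3, so these 2 were not told apart. For CD43++ckit+ they were below 0.1 for number 2 (-0.617 and -0.318), and its pairs were not. The values given first between CD43+ckit- and CD43-ckit- do not use the pairing. Member calls that the blocked fit of these 2 populations added are given beside them. Total counts of 17966197 to 31781746 gave each member at least 85 counts.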

Additional observations from a re-analysis of the deposited data

How the results depend on the processing

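Each member difference was recomputed under 18 alternatives. Of 486 values 430 kept direction and call, 7 lost a call, 37 gained one and 12 changed sign. With library totals the sign changed for Mthfd2 in all 3 comparisons (0.25, 0.42 and 0.17 in the order CD43++ckit+ minus CD43+ckit-, CD43++ckit+ minus CD43-ckit-, CD43+ckit- minus CD43-ckit-), for Shmt1 between the ckit- populations (0.13) and for Rrm2 in CD43++ckit+ minus CD43-ckit- (0.20). For CD43++ckit+ minus CD43+ckit-, Shmt2 ran from -0.06 (without CD43+ckit- replicate 1) to 0.27 with single libraries left out and turned to -0.11 without the least correlated libraries, and Mthfd2 to 0.00 in a fit of 2 populations, 0.01 without the least correlated libraries and -0.15 to 0.09 with single libraries left out. Between CD43+ckit- and CD43-ckit-, Rrm2 turned to -0.15 with DESeq2 size factors and with DESeq2's test, -0.06 with the strict filter (CPM of 1 in 6 libraries), -0.02 in a fit of 2 populations, -0.12 (without CD43+ckit- replicate 1) to 0.11 with single libraries left out, and -0.10 without the least correlated libraries. Slc25a38 turned there to -0.10 with DESeq2 size factors and test, -0.02 with the strict filter, and ran from -0.04 to 0.35 with single libraries left out. Of the differences that changed sign, only that of Rrm2 in CD43++ckit+ minus CD43-ckit- had been called with TMM, all 9 libraries and no block. Mthfd2 in CD43++ckit+ minus CD43-ckit- was called after its change with library totals (0.42, adjusted p = 0.0405). It was called with the opposite sign with DESeq2 size factors (-0.76, 0.0127) and with the strict filter (-0.66, 0.0233). The cause was not tested.

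In fits of the CD43+ckit- and CD43-ckit- libraries alone, the replicate block raised the members called from 4 to 7, and with it Rrm2 was at -0.03. With the replicate block on all 9 libraries 5 members were called there, Mthfd1 among them (0.74, adjusted p = 0.0361). The numbers of CD43++ckit+ were not taken as pairs: relative to CD43-ckit-, Phgdh passed with the block on all 9 libraries (0.97, adjusted p = 0.00278) and in a blocked fit of the 2 populations (0.87, 0.0163), and Mthfd2 passed as lower in the latter (-0.59, 0.024). With the replicate block the change in the log2 ratio of Mthfd2 to Mthfd2l (-2.05, CD43++ckit+ minus CD43-ckit-) had an exact permutation p adjusted to 0.0833, where permuting within numbers allows no p below 0.0278. Of the named differences between the ckit- populations, Gart (0.55), Atic (0.66), Spn (0.47), Shmt1, Mthfd1 and Mthfd2, not called with all 9 libraries and no block, were called in the fit of 2 populations with the block and not in that without it, and Mat2a lost its call in both (0.36, adjusted p = 0.0605 with the block). Without the least correlated libraries 8 members were called there, and 8557 genes in place of 5005 between CD43++ckit+ and CD43+ckit-. With DESeq2 size factors the lower Mthfd2 of CD43++ckit+ relative to CD43-ckit- passed (-0.76, adjusted p = 0.0127), and with no filter on low counts Phgdh passed as higher there (1.00, 0.0408). Low counts limit Mthfd2l in CD43-ckit-.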
